A study of Homo sapiens with 2 samples.

Results

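The protein folding machinery of the endoplasmic reticulum and the genes of the unfolded protein response were followed as a set of 40 genes, chosen by symbol. All 40 were found, 35 in rows of their own and 5 in rows joined with a neighbouring gene, and all reached 1 RPKM (reads per kilobase of transcript, scaled to the library's total) or more in at least 1 library. They belong to 11183 expressed protein-coding genes. The cells were C4-2B, an androgen-independent line derived from LNCaP prostate cancer cells that models castration-resistant disease in bone. The vehicle group received DMSO, and the other group received 2.5 µM MA4-022-1, which the labels call an inhibitor of both BET proteins and kinases. BET proteins read acetylated histones and promote transcription elongation. Each group held 1 library from this single line, the length of exposure was not given in the sources used here, and no difference below therefore has a replicate check or a p-value.

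Proteins bound for the cell surface or for secretion enter the endoplasmic reticulum through a channel in its membrane, where chaperones, a cycle of sugar-binding lectins and disulfide enzymes fold them. Proteins that fail to fold are sent back to the cytosol for degradation, and folded cargo leaves in vesicles coated by the COPII complex. When unfolded protein accumulates, the membrane sensors IRE1 (gene ERN1), ATF6 and PERK (gene EIF2AK3) start the unfolded protein response, which raises folding and degradation capacity and lowers translation. IRE1 removes a short intron from XBP1 mRNA, and ATF6 is cut by the proteases of MBTPS1 and MBTPS2, so that both yield active transcription factors. Luminal prostate epithelium is a secretory tissue and makes heavy use of this machinery.

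Levels are RPKM, which allows comparison between genes per length. Every difference is a log2 ratio, RPKM + 1 with MA4-022-1 over RPKM + 1 with vehicle. Folds are on that same scale and understate differences of low genes. The steps of low values placed the normalising totals at 26977411 reads (vehicle) and 19808736 reads (MA4-022-1). From these and annotated transcript lengths, the members had between 134 and 54701 reads over both libraries, and 95% counting intervals of the log2 ratio are given beside the main differences. These cover counting error only and not the spread between cultures. Of the members, 13 lay in deposited loci that also held another gene's row at 5 RPKM or more. The luminal prostate markers were present in both libraries, with FOLH1 at 615 and 488 RPKM and TMPRSS2 at 251 and 310 RPKM. Of 10 markers of fibroblasts, immune, endothelial and basal cells, 8 were under 1 RPKM in both libraries. COL1A1 stood at 1.19 and 5.03 RPKM, and the CD68 row was joined with EIF4A1 and SENP3, so that it cannot be read as CD68. In bulk RNA, fewer cells that express a gene and less RNA per cell cannot be told apart.

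The members lay mostly close to their vehicle level, with 2 exceptions among the transcription factors. Of 40 members, CREB3L4 and XBP1 (2 genes) were at least 2-fold lower with MA4-022-1, and none was 2-fold higher. Among expressed protein-coding genes, 9.29% were lower and 4.12% higher by 2-fold or more, so the members did not exceed the background in either direction. At 1.5-fold, 4 members were lower and 2 higher, where the background was 21.6% lower and 13.3% higher. The median log2 ratio was -0.11 over the 40 members and -0.09 over all expressed protein-coding genes. The summed level of the 35 members with rows of their own was 7490 RPKM in the vehicle library and 8242 RPKM with MA4-022-1. Of these 35, however, 12 had a ratio above 0 and 23 below. As a share of the summed RPKM of rows with a symbol, short RNAs left out, the 40 members made up 0.88% with vehicle and 0.86% with MA4-022-1. The sign of 10 members near 0 depended on how the libraries were scaled. Setting the housekeeping controls to 0 moved all ratios up by 0.11, and equal sums over expressed genes moved them down by up to 0.11.

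**Figure D1:**
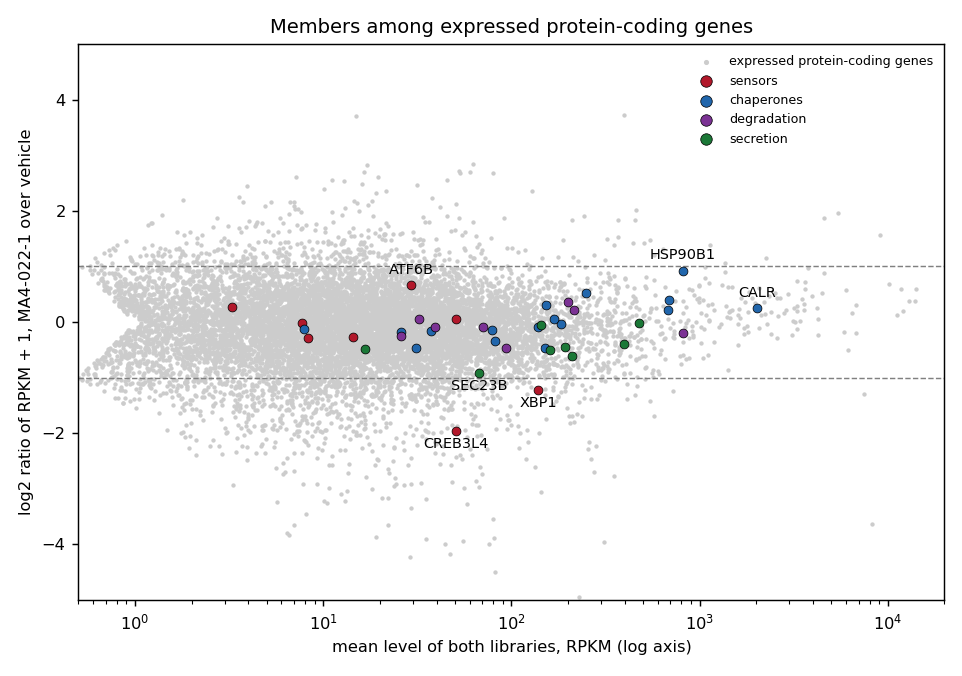
Log2 ratio of RPKM + 1 (vertical axis, MA4-022-1 over vehicle) against the mean level of both libraries in RPKM (horizontal log axis) for expressed protein-coding genes in grey and the 40 members coloured by arm. Dashed lines mark 2-fold, 5 genes lie outside the axes, and CREB3L4 and XBP1 are the 2 members below the lower line.

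Among the sensors and their transcription factors, CREB3L4 and XBP1 were at least 2-fold lower. The other 6 genes, the sensor genes ERN1 and ATF6 among them, lay within 2-fold. CREB3L4, a membrane-bound factor of the CREB3 family that is abundant in prostate epithelium and androgen-induced there, had 80.9 RPKM in the vehicle library and 20.1 RPKM with MA4-022-1. That was 3.89-fold lower, a log2 ratio of -1.96 (counting interval -2.14 to -1.78; hg19, chromosome 1, 153931575 to 153950545, a locus that also holds SLC39A1 and JTB). Of expressed protein-coding genes, 1.5% had a lower ratio. The neighbours in that locus were lower by less, JTB at 344 against 229 RPKM and SLC39A1 at 25.6 against 14.2 RPKM, and their share in reads assigned to CREB3L4 was not tested. Within the 40 members, CREB3L4 was the 25th most abundant in the vehicle library and the 34th with MA4-022-1.

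XBP1, the factor that IRE1 activates by splicing, had 195 RPKM in the vehicle library and 82.7 RPKM with MA4-022-1. This was 2.35-fold lower, a log2 ratio of -1.23 (counting interval -1.29 to -1.17; chromosome 22, 29189879 to 29196585, a locus it has to itself). Its order of abundance among the members went from 12th to 20th. The RPKM counts spliced and unspliced XBP1 mRNA together, so the amount of active factor cannot be read from it. The stretch of XBP1 mRNA below, from GENCODE 29, shows what the gene-level value cannot resolve. The 26 bases in capitals are those that IRE1 excises, bounded by repeats of its cleavage motif, and they were present in 4 of 7 annotated XBP1 transcripts and precisely missing from 2.
XBP1: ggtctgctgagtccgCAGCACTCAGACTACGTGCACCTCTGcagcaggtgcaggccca

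ERN1, which encodes IRE1 itself, was at 15.9 against 13 RPKM, a log2 ratio of -0.27 whose counting interval from -0.63 to 0.09 includes 0. That interval rests on an assumed length of 557 bases, against 4137 for ATF6, and a longer length would narrow it. ATF6 stood at 9.23 against 7.37 RPKM, a log2 ratio of -0.29. Both were thus less than 1.5-fold apart. For ATF6B, the relative of ATF6, the only row with a value was joined with TNXB, at 22.6 against 36.3 RPKM, and it was 1.58-fold higher. TNXB overlaps ATF6B, and the share of each in that row is not known.

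The activating proteases were level between the libraries. MBTPS1, the site-1 protease, stood at 49.9 against 51.9 RPKM. MBTPS2, the site-2 protease, was read from a row joined with YY2 at 7.73 against 7.60 RPKM. CREB3L2, a CREB3 family factor of secretory cells, was the least abundant member at 2.89 against 3.69 RPKM (counting interval -0.11 to 0.66). The 8 genes of this arm had a median log2 ratio of -0.15 and the widest range of the 4 arms, from -1.96 to 0.66.

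**Figure D2:**
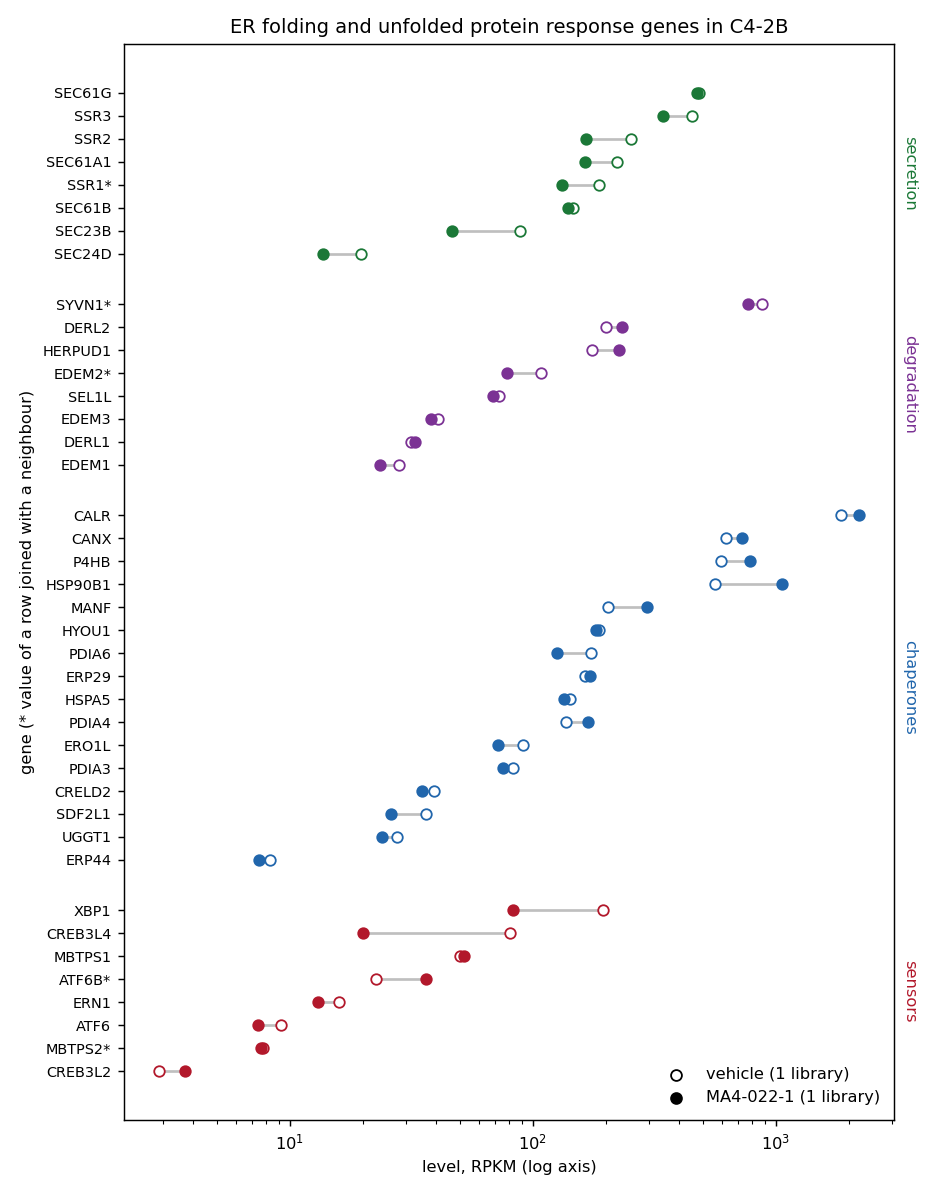
Level of each of the 40 members in RPKM (log axis), open circles for the vehicle library and filled circles for the MA4-022-1 library, grouped by arm; an asterisk marks a value read from a joined row. The longest gaps are those of CREB3L4, XBP1, SEC23B and HSP90B1.

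The luminal chaperones and folding enzymes spread to both sides of 0, and those most abundant in the vehicle library were above it. HSP90B1, which encodes GRP94, the HSP90 of the endoplasmic reticulum, had 560 RPKM in the vehicle library and 1065 RPKM with MA4-022-1. It was 1.90-fold higher, a log2 ratio of 0.93 (counting interval 0.89 to 0.97; chromosome 12, 104235229 to 104359487, a locus that also holds C12orf73), and 94.7% of expressed protein-coding genes had a lower ratio. With housekeeping controls set to 0 the log2 ratio was 1.03, past 2-fold, and with equal sums it was 0.81. HSP90B1 went from the 5th to the 2nd most abundant member, where the joined row of FAU and SYVN1 stood above it in the vehicle library only. MANF, a small secreted protein that binds the chaperone BiP, was 1.44-fold higher at 204 against 295 RPKM.

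HSPA5, which encodes BiP, the Hsp70 of the endoplasmic reticulum and the usual readout of the unfolded protein response, stayed near its vehicle level. It had 142 RPKM in the vehicle library and 134 RPKM with MA4-022-1, a log2 ratio of -0.08 whose sign depended on the scaling. HYOU1, a nucleotide exchange factor of BiP, was at 187 against 181 RPKM, also with a sign set by the scaling. SDF2L1, which works with BiP and its J proteins, was 1.38-fold lower at 36.3 against 26.1 RPKM. CRELD2, a stress-induced luminal protein, stood at 39.3 against 35.1 RPKM. Partners of the same chaperone thus lay on both sides of 0, from SDF2L1 at -0.46 to MANF at 0.53.

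The lectin chaperones, which hold glycoproteins through their glucose-trimmed sugars, were both slightly higher. CALR, the most abundant member, stood at 1849 against 2207 RPKM, a log2 ratio of 0.26 (counting interval 0.23 to 0.28). A row named CTC-425F1.4 in the same locus stood at 914 against 1386 RPKM, and its overlap in reads with CALR was not tested. CANX, the membrane-bound partner of CALR, was at 625 against 727 RPKM. UGGT1, the enzyme that marks misfolded glycoproteins for another round, stood at 27.5 against 24 RPKM, a log2 ratio of -0.19.

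Disulfide enzymes also divided. P4HB, the main protein disulfide isomerase, was 1.31-fold higher at 595 against 780 RPKM, and PDIA4 was 1.23-fold higher at 137 against 169 RPKM. PDIA6, of the same family, was 1.38-fold lower at 174 against 126 RPKM. ERO1L, the oxidase that recharges these enzymes, was 1.27-fold lower at 91.3 against 71.9 RPKM. PDIA3, which serves the lectin chaperones, was at 83.0 against 75.3 RPKM. Its locus also held HYPK joined with SERF2 at 419 against 504 RPKM and MIR1282 at 371 against 236 RPKM. Their share in reads assigned to PDIA3 was not tested. ERP29, a member of the disulfide isomerase family without enzymatic activity, stood at 165 against 172 RPKM. ERP44, which retains ERO1L in the reticulum, stood at 8.28 against 7.49 RPKM.

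The median of the 16 chaperones and enzymes was -0.06, and it turned positive, to 0.04, with the housekeeping controls set to 0. Of these, 7 had a ratio above 0 and 9 below. Their summed level went from 4922 to 6095 RPKM. Without HSP90B1 it went from 4363 to 5031 RPKM, and without HSP90B1 and CALR from 2514 to 2824 RPKM. The 5 members with the largest gain in RPKM went from 3832 to 5073 RPKM, and the other 11 from 1091 to 1022 RPKM. Those 5 were picked by their gain, so the lower sum of the rest is no separate result.

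**Figure D3:**
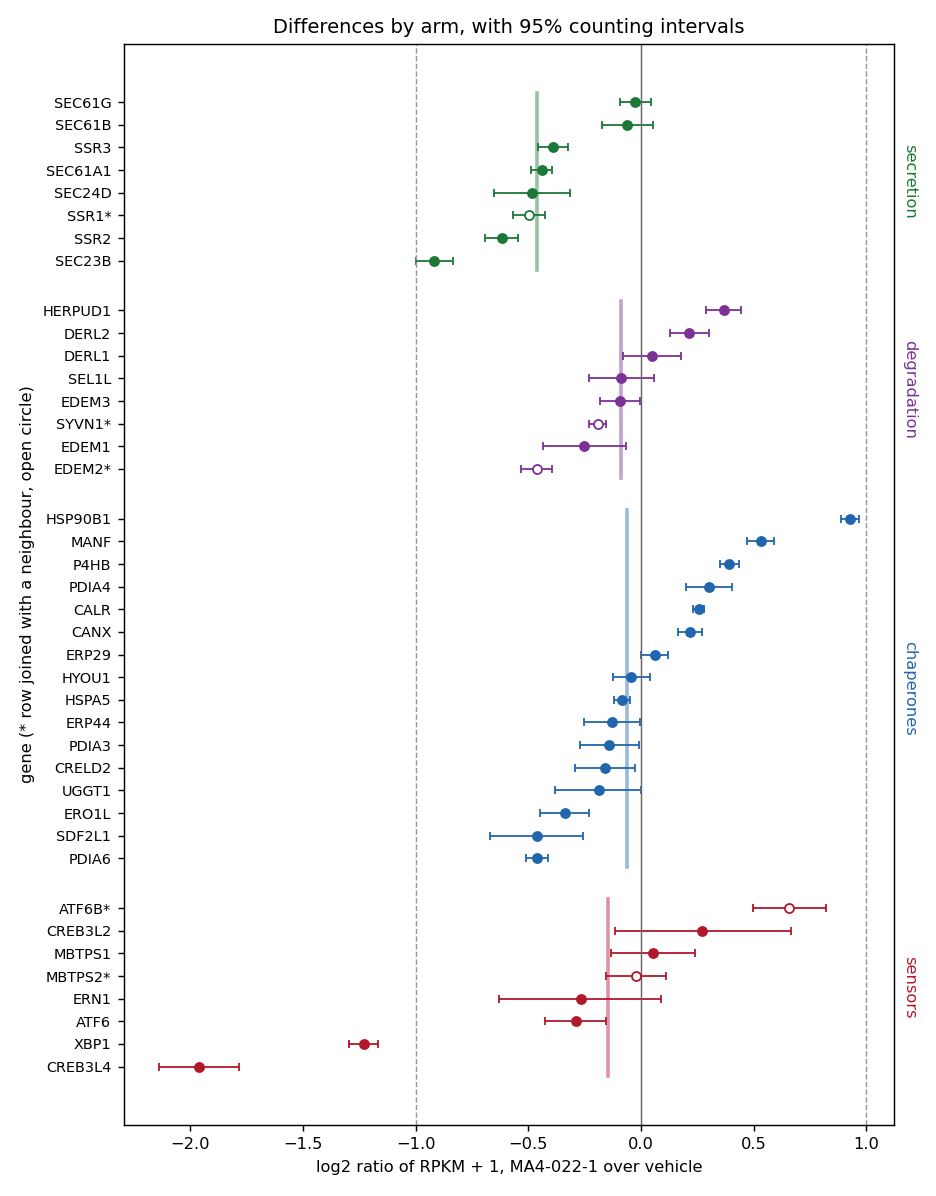
Log2 ratio of RPKM + 1, MA4-022-1 over vehicle, for each member by arm, with 95% counting intervals as bars, arm medians as thick vertical lines and 2-fold as dashed lines; open circles are joined rows. The secretion genes all lie at or left of 0, while the chaperones spread to both sides.

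The promoters of several members carry the sequence through which ATF6 and XBP1 act together with the CCAAT-binding factor NF-Y, and these are shown because the genes that hold it lay on both sides of 0. Promoters were taken from RefSeq (GRCh38.p14, 250 bases before to 50 after the gene start), and 37 of 40 members matched, ERO1L under its current symbol ERO1A. PDIA3, DERL1 and SEC24D were not among them. The endoplasmic reticulum stress element, searched on both strands as CCAAT and CCACG with any 9 bases between them, occurred in 6 of 37, against 0.0806% of 27305 promoters and 0.152% of 7869 promoters of expressed protein-coding genes. The members were listed for their known part in this response, so that excess is a property of the list. The element lies in the stretches below, with its CCAAT and CCACG ends (or their reverse complements) in capitals.
XBP1: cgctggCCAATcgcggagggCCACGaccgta
HSPA5: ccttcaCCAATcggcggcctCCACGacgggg
CRELD2: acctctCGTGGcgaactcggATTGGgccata
CALR: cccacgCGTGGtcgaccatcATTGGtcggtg
CANX: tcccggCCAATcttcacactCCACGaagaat
HSP90B1: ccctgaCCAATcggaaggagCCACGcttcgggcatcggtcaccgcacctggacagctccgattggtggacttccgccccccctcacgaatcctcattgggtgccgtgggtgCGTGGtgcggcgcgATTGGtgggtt

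In GRCh38.p14 these lie at chr22:28800597-28800627 (minus strand, XBP1), chr9:125241385-125241415 (minus, HSPA5), chr22:49918548-49918578 (plus, CRELD2), chr19:12938378-12938408 (plus, CALR), chr5:179698772-179698802 (plus, CANX) and chr12:103930210-103930345 (plus, HSP90B1). All are upstream of the gene start, and HSP90B1 is the member with 2 matches, in opposite orientation. The 6 genes ranged from a log2 ratio of -1.23 for XBP1, through -0.16 for CRELD2 and -0.08 for HSPA5, to 0.22 for CANX, 0.26 for CALR and 0.93 for HSP90B1. Thus 3 were above 0 and 3 below, with a median of 0.07 against -0.13 for the 31 matched members without the element.

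A shorter variant, ATTGG and CCACG with any 1 base between them, searched on both strands, occurred in 3 of 37 members and in 0.0549% of all promoters. It is in capitals below, on either strand.
HERPUD1: acgccgATTGGGCCACGttggga
SDF2L1: cggaagCGTGGACCAATcaaaac
HYOU1: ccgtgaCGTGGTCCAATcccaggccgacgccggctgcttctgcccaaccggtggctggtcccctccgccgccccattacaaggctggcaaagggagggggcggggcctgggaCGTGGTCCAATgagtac

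These stretches are chr16:56932019-56932041 (plus strand, HERPUD1), chr22:21642108-21642130 (plus, SDF2L1) and chr11:119057268-119057396 (minus, HYOU1). HERPUD1 had a log2 ratio of 0.37, HYOU1 of -0.04 and SDF2L1 of -0.46. The XBP1-binding sequence TGACGTGG, searched on both strands, matched 1 of 37 members, HYOU1, where it overlaps the variant element, and 0.795% of all promoters. CREB3L4, the member with the largest difference, held none of the 3 sequences in this window.

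The degradation arm stayed near its vehicle level. HERPUD1, a membrane scaffold of the degradation complex and a common stress marker, had the highest ratio of the 8, at 175 against 226 RPKM, or 1.29-fold higher (counting interval 0.29 to 0.44). The channel proteins of the DERL family stood at 200 against 232 RPKM for DERL2 and 31.5 against 32.6 RPKM for DERL1. SEL1L, the adaptor of the ubiquitin ligase, was at 72.8 against 68.5 RPKM.

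The EDEM proteins trim mannose from misfolded glycoproteins and so mark them for removal. EDEM1 was at 28.2 against 23.5 RPKM, a log2 ratio of -0.25, and EDEM3 at 40.7 against 38.1 RPKM. EDEM2 was read from a row joined with the translation factor EIF6, at 108 against 78.2 RPKM. The ligase SYVN1 was read from a row joined with FAU, a gene that encodes a ribosomal protein, at 876 against 766 RPKM, so neither row gives a level of the member alone. The arm's median log2 ratio was -0.09, or -0.02 without the joined rows, and 0.02 with the housekeeping controls set to 0.

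In the secretion arm, none of the 8 members had a ratio above 0 on the deposited scale, and the median of -0.46 was the lowest of the 4 arms. Expressed protein-coding genes had a median of -0.09 and a lower quartile of -0.51. At 1.5-fold, 2 of the 8 members were lower, against 21.6% of those genes. Only SEC61B and SEC61G were so near 0 that the scaling set their sign. SEC23B, the COPII coat subunit that activates the SAR1 GTPase, was the furthest, at 88.5 against 46.4 RPKM. It was 1.89-fold lower, a log2 ratio of -0.92 (counting interval -1.0 to -0.83; chromosome 20, 18488137 to 18542059), and 10.9% of expressed protein-coding genes had a lower ratio. With equal sums it passed 2-fold at -1.03. SEC24D, which selects cargo in the same coat, was 1.40-fold lower at 19.6 against 13.8 RPKM.

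The translocon-associated protein complex, encoded by the SSR genes, sits beside the channel and helps weak signal sequences to enter. SSR2 was 1.54-fold lower at 254 against 165 RPKM (counting interval -0.69 to -0.55; chromosome 1, 155978720 to 155990750). SSR3 was 1.31-fold lower at 452 against 345 RPKM. SSR1 was read from a row joined with CAGE1, at 187 against 132 RPKM. The remaining subunit gene, SSR4, was on the other side at 220 against 238 RPKM, a log2 ratio of 0.11 whose sign turned with equal sums.

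The subunits of the channel itself differed by unequal amounts. SEC61A1, which forms the pore, was 1.36-fold lower at 223 against 164 RPKM, in a locus that also holds RUVBL1 at 151 against 91.1 RPKM. The small subunits SEC61B and SEC61G stood at 146 against 140 and 482 against 473 RPKM, and both counting intervals include 0. Summed over the 7 members with rows of their own, the secretion arm went from 1665 to 1347 RPKM. The chaperone arm had the higher sum with MA4-022-1, also without HSP90B1 and CALR, though 9 of its 16 members had a ratio below 0.

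The rest of the pathway was read from 10 lists with 232 further genes, of which 222 were expressed. By 2-fold or more, 11 of these were lower and 2 higher, and the median log2 ratio was -0.15. At 2-fold both directions were below the shares over protein-coding genes, 9.29% lower and 4.12% higher. At 1.5-fold, 51 of the 222 were lower and 14 higher, against 21.6% and 13.3% of protein-coding genes, so the lower share was near the background and the higher share under it.

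The list of PERK and its targets had the lowest median of the 10, at -0.85, where 5 of 14 expressed genes were at least 2-fold lower and none was 2-fold higher, against 9.29% and 4.12% of protein-coding genes. The lower count was 3 of 14 with a pseudocount of 5 RPKM in place of 1, and 7 with equal sums over expressed genes. EIF2AK3, the PERK kinase, was 1.69-fold lower at 24.5 against 14.1 RPKM. ATF4, a factor translated when PERK is active, was 1.92-fold lower at 521 against 271 RPKM. TRIB3, a pseudokinase induced by ATF4, was 3.65-fold lower at 45.8 against 11.8 RPKM. NUPR1, CEBPG and CEBPB, transcriptional regulators of the stress response, were 3.21-fold, 3.01-fold and 2.64-fold lower. The remaining gene beyond 2-fold was CHAC1, which degrades glutathione, at 10.9 against 3.93 RPKM and named after its values were seen. Of the 14 genes, 11 had a ratio below 0 and 3 above. The 3 were DDIT3, the pro-apoptotic factor CHOP, at 77.7 against 90.3 RPKM, ATF3 at 43.4 against 51.3 RPKM and PPP1R15A at 2.97 against 3.13 RPKM. ATF3 and PPP1R15A were also named after their values were seen, as was EIF2S1, just inside 2-fold at 282 against 141 RPKM. PERK activity cannot be read from these RNA levels, and whether the differences came through PERK was not tested.

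Among other sensors and regulators, 1 of 13 expressed genes was beyond 2-fold. It was BHLHA15, which encodes MIST1, a factor of secretory cells that XBP1 is known to induce, at 33.4 RPKM in the vehicle library and 5.23 RPKM with MA4-022-1. This was 5.52-fold lower, a log2 ratio of -2.46 (counting interval -2.82 to -2.13), and larger than the difference of XBP1 itself. The relatives of CREB3L4 differed from it in level, with CREB3 at 4.85 against 5.06 RPKM and CREB3L1 at 0.307 against 0.802 RPKM.

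Other luminal chaperones and J proteins had a median of -0.21, with 2 of 25 at least 2-fold lower. RCN1, a calcium-binding protein of the lumen, stood at 145 against 45 RPKM, and FKBP10, a prolyl isomerase of collagen folding, at 34.7 against 14.6 RPKM. DNAJB11, the J protein that delivers clients to BiP, was 1.71-fold lower at 222 against 130 RPKM. DNAJB9, known as a target of spliced XBP1, was 1.31-fold lower at 74.9 against 56.8 RPKM. DNAJC3, which restrains PERK, and PPIB, a prolyl isomerase, were 1.16-fold and 1.2-fold lower, at 45.4 against 39.0 and 1007 against 838 RPKM.

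In the remaining lists, few genes lay beyond 2-fold. Other disulfide enzymes had a median of -0.29 and 1 of 18 lower, the peroxidase GPX8 at 13.4 against 5.02 RPKM. Glycan transfer and trimming had a median of -0.07 and 1 of 34 lower, DPAGT1, which starts the synthesis of the glycan precursor, at 29.3 against 13.4 RPKM. Of 30 other degradation genes none was beyond 2-fold, and the furthest were TMUB1 at 10.9 against 5.07 RPKM and DERL3 at 38.1 against 21.0 RPKM.

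Other translocation genes had a median of -0.07 over 21 genes, none beyond 2-fold. SRPRB, a subunit of the signal recognition particle receptor, was 1.87-fold lower at 141 against 74.9 RPKM, and SPCS3, of the signal peptidase, 1.65-fold lower. SERP1, which protects nascent proteins at the channel, stood at 130 against 83.9 RPKM. The 42 expressed genes of COPII, COPI and retrieval had a median of -0.04. Of these, 1 was at least 2-fold lower, ERGIC1, a membrane protein that cycles to the Golgi, at 271 against 114 RPKM. The low median of the secretion arm thus did not extend to either of these lists. SEC23A and SEC24A, the paralogues of the coat members above, stood at 61.2 against 46 and 14.3 against 14.8 RPKM. The retrieval receptors KDELR3 and KDELR2 were at 7.34 against 7.55 RPKM and, in a row joined with DAGLB, 132 against 108 RPKM.

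The calcium store list, with 11 expressed genes, held the 2 genes at least 2-fold higher, against 4.12% of protein-coding genes. Both were IP3 receptors, which release calcium from the endoplasmic reticulum, and both were low in the vehicle library. ITPR2 stood at 2.19 against 12.1 RPKM, or 4.10-fold higher (counting interval 1.49 to 2.52). It rested on 23 and 91 reads, estimated with a length of 578 bases. ITPR1 stood at 3.03 against 9.89 RPKM, or 2.70-fold higher (counting interval 1.24 to 1.63). The third receptor, ITPR3, named after its values were seen, was 1.66-fold lower at 15.3 against 8.81 RPKM. In the list of selective autophagy and shape of the reticulum, none of 14 was beyond 2-fold. ATL3 was 1.84-fold lower, and FAM134C, a receptor of that process, 1.68-fold higher.

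**Figure D4:**
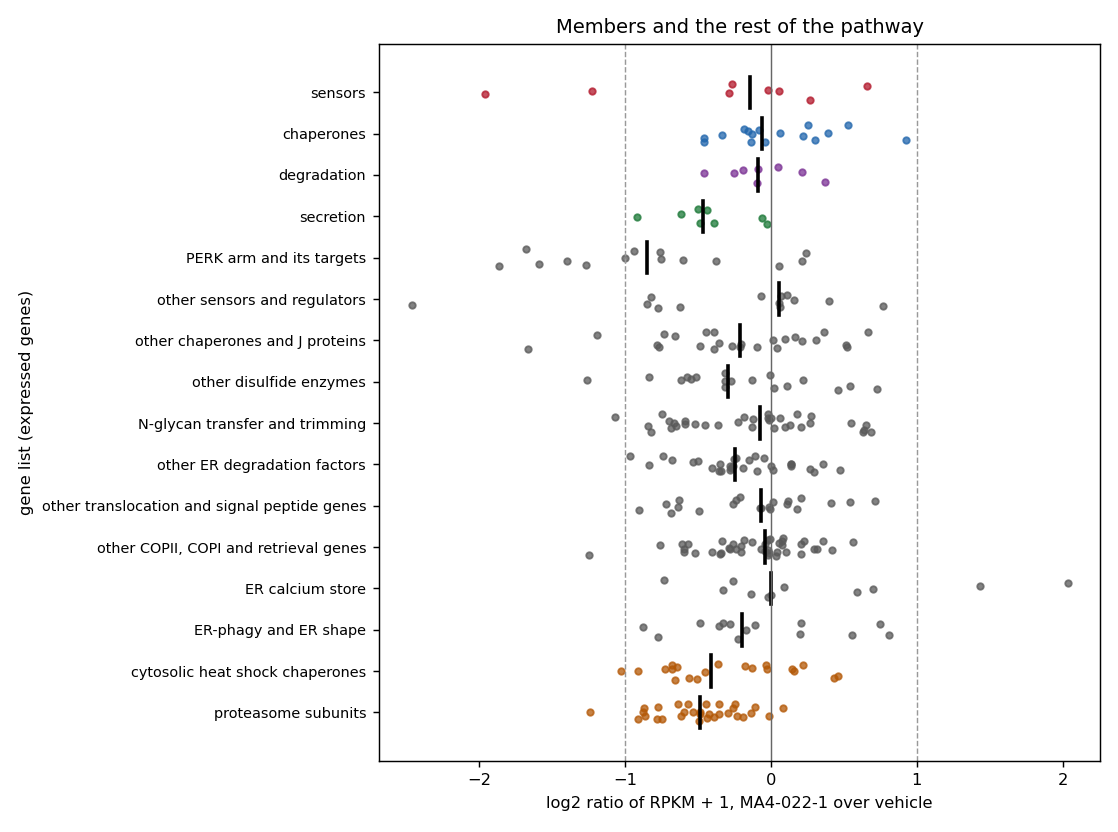
Log2 ratio of RPKM + 1, MA4-022-1 over vehicle, of the expressed genes of the 4 arms (coloured), the 10 further pathway lists (grey) and 2 lists set beside them (orange), with medians as black bars and 2-fold as dashed lines. The list of PERK and its targets has the lowest median, -0.85.

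The cytosol's own folding and degradation genes were set beside the members. Cytosolic and mitochondrial heat shock chaperones had a median log2 ratio of -0.41 over 20 expressed genes, 7 of them lower by 1.5-fold or more and none higher. Proteasome subunits had a median of -0.48 over 31 genes, with 11 at least 1.5-fold lower and none higher. Over expressed protein-coding genes the median was -0.09, with 21.6% lower and 13.3% higher by 1.5-fold or more. Of the 16 chaperones and enzymes of the endoplasmic reticulum among the members, none was at least 1.5-fold lower and 1 was higher. This did not extend to the 25 other luminal chaperones and J proteins. Of those, 6 were at least 1.5-fold lower and 1 was higher, with a median of -0.21. HSP90AB1, a cytosolic relative of HSP90B1, was 1.58-fold lower at 1037 against 657 RPKM. HSP90AA1, another such relative, was 1.29-fold lower at 923 against 717 RPKM, and both were named after their values were seen. With 1 library per group, the differences between these lists have no test.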

How the data were processed

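Ribosomal RNA was removed from total RNA before ScriptSeq library construction and single-end 50 bp sequencing, per the labels' protocols. Per the submitters' processing notes, TopHat2 2.0.13, Cufflinks 2.2.1 and build hg19 were used. Per the file headers, the authors deposited RPKM per row with a locus and a symbol, so no count test was run. Each table held 62271 rows, of which 2751 without a symbol were left out, as were short RNAs from the background.

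Rows were summed per symbol, and a joined row counted for each member it names. A gene was expressed at 1 RPKM or more in a library. The measure was log2 of RPKM + 1, MA4-022-1 over vehicle, with a threshold of 2-fold. The members and lists were chosen with earlier results of these data known. All members were described. Of each further list, up to 4 genes beyond 2-fold with at least 5 RPKM were named, or else the 2 furthest, besides 15 fixed genes.

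Totals were read from steps of low values in processed pseudogenes, where 87.1% and 87.2% of values of up to 5 reads lay within 2% of whole reads. Counting intervals are exact (Clopper-Pearson) on reads estimated with the median transcript length of GENCODE 29, which is an assumption. Where the true transcript is longer, the reads are underestimated and the interval is too wide. Loci are hg19 with starts counted from 1. Python 3.11.15, numpy 2.4.6, pandas 2.3.3, scipy 1.17.1 and matplotlib 3.10.9 were used, and the fold calls were tested on simulated data. A planned search of protein ends was not made.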

Additional observations from a re-analysis of the deposited data

How the results depend on the processing

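No paired analysis was possible because each group holds 1 library. Over the 11 alternatives that give a ratio per gene, none of the 15 members and named genes beyond 2-fold changed sign. For most alternatives this was bound to hold, so it is no check of these differences. The scalings moved log2 ratios by no more than about 0.11, a pseudocount cannot turn a sign, and the filters leave ratios as they are. Without joined rows, 2 members remained at least 2-fold lower and none higher. The count of members at least 2-fold higher, 0 as reported, was 1 with the housekeeping controls set to 0 and 1 with upper quartiles set equal, in each case HSP90B1. A 1.5-fold threshold gave 2 higher and 4 lower, and a 3-fold threshold gave 1 lower, CREB3L4. The chaperone median was 0.042 with the housekeeping controls set to 0, 0.0386 with equal upper quartiles and -0.18 with equal sums. The secretion median was -0.36 with the housekeeping controls set to 0 and -0.57 with equal sums. CEBPB, CHAC1, GPX8, ITPR1 and DPAGT1 lay inside 2-fold with a pseudocount of 5 RPKM, and DPAGT1 also with the housekeeping controls set to 0 and with equal upper quartiles. Of the members and the genes named by rule, SEC23B, ATF4, TMUB1 and SRPRB passed 2-fold with equal sums, TMUB1 also with a pseudocount of 0.1 RPKM. No library could be left out, and the precision of every ratio is limited by the single library per group.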
